A study of Mus musculus with 8 samples.

Results

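The 10 genes described here carry the calcium cycle of the heart muscle cell through the sarcoplasmic reticulum, its internal calcium store. They are Ryr2, Atp2a2, Pln, Casq2, Trdn, Slc8a1, Cacna1c, Hrc, Jph2 and Camk2d, which were chosen by name and found by Ensembl identifier among 55471 genes. All 10 passed the filter on low counts that kept 15084 genes for testing. RNA was sequenced from heart pieces of mice of 2 genotypes, 4 wild type (WT) and 4 TAZG197V. The latter were hemizygous males with a glycine to valine change in Tafazzin, the mitochondrial enzyme that matures the lipid cardiolipin. The mutation models Barth syndrome, an inherited heart and skeletal muscle disease. Per the study, the mice used for sequencing were 14 weeks old, and the labels list no treatment. The edited line was made by CRISPR/Cas9 in C57BL/6N zygotes and bred to C57BL6/J, and the strain background of each mouse is not given in the sources used here. Each library is taken as the heart of a separate mouse, since the labels do not say that hearts were pooled.

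With each heartbeat, calcium enters through the L-type channel and opens the ryanodine receptor, which lets stored calcium flow into the cytosol and start contraction. For relaxation, the SERCA2a pump returns calcium to the store under the control of small membrane peptides, and the sodium-calcium exchanger moves the rest out of the cell. Inside the store, calcium is buffered by calsequestrin and by a histidine-rich protein, and triadin holds these buffers to the release channel.

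In TAZG197V hearts 7 of the 10 genes changed. Hrc, Pln, Ryr2, Atp2a2, Jph2 and Trdn fell, Slc8a1 rose, and Casq2, Cacna1c and Camk2d were not called. Hrc fell most, to 39.6% of its WT mean, and Slc8a1 rose to 172% of its WT mean. Outside the 10 genes, the transcript of DWORF, a small peptide that activates SERCA, fell to 3.67% of its WT mean. Here and throughout, called means that edgeR gave an adjusted p under 0.05, a mean count of at least 50 and a fold change past the small minimum that the study used as well.

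The same test called 33.5% of all genes tested, of which 15.1% of genes tested were called lower and 18.5% higher, so calls were common in these hearts. The members are abundant, and among the 697 genes with a mean count of at least 5000 the share called was 51.6%. The median log2 fold change was -0.36 over the 10 members, -0.08 over those abundant genes and -0.01 over all genes tested. In the same 7 genes the libraries of the 2 genotypes did not overlap, with 6 members lower and 1 higher in all TAZG197V libraries. Over all genes tested, 13.9% were lower and 19.3% were higher in this way. Without both number 4 libraries 1 member was called higher and 5 lower, since Ryr2 was no longer called.

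Total counts ran from 23055689 to 36301031 per library. Levels are given as CPM, the count scaled to a common library size. Taz itself fell from 60.9 ± 2.36 to 47.3 ± 2.6 CPM (SD, n = 4 each; adjusted p = 0.00124, edgeR), with no overlap, and a point mutation need not remove its transcript. Libraries of number 4 stood apart in both genotypes. The summed level of 7 brain markers reached 118 CPM in WT 4 and 277 CPM in TAZG197V 4, against at most 17.6 CPM in the other 6, and 6 red cell markers summed to 55072 CPM in WT 4 against at most 1065 CPM elsewhere. The 5 atrial markers summed to 1007 CPM in WT 2, and to between 4.02 and 131 CPM in the others. The 6 ventricular cardiomyocyte markers summed to between 48190 and 63726 CPM, so the defining transcripts of the labelled tissue were high in every library.

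The short reading frames of 3 genes are shown because their products sit beside the calcium pump and because their transcripts behaved differently in these libraries. Strit1 encodes DWORF and is listed in the annotation as Gm34302 (ENSMUSG00000103476). Its reading frame lies on the minus strand between chr3:63481290-63483827 in 2 coding stretches and codes for 34 residues. The frame of Pln (phospholamban, which inhibits the pump) is at chr10:53343864-53344022 on the plus strand and codes for 52 residues. The frame of Sln (sarcolipin, the inhibitor typical of the atrium) is at chr9:53853473-53853568 on the plus strand and codes for 31 residues. They are coding sequences read from GENCODE M21 transcripts on GRCm38, 5′ to 3′, with the start and stop codons in capitals.
Strit1: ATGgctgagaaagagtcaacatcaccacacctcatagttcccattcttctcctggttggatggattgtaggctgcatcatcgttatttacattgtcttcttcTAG
Pln: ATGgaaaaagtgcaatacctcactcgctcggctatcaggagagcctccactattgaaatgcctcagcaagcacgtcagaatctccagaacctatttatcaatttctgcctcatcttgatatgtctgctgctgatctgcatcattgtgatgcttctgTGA
Sln: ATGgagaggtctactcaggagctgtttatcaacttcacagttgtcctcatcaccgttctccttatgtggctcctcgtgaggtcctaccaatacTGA

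The release channel Ryr2 (ENSMUSG00000021313, chr13:11553102-12106945, minus strand) was lower in TAZG197V hearts. It was 2728, 2287, 2481 and 2716 CPM in WT 1 to 4 and 2173, 1504, 2088 and 1804 CPM in TAZG197V 1 to 4. The groups did not overlap, although WT 2 and TAZG197V 1 lay only a little apart and TAZG197V 2 was the lowest library. The fold change was -0.45 on the log2 scale (SE 0.126, adjusted p = 0.0225, edgeR). This call was lost without WT 1 (adjusted p = 0.062), without TAZG197V 4 (adjusted p = 0.065) and without both number 4 libraries (-0.37, adjusted p = 0.0655), so the fall of Ryr2 was the least stable of the 7.

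The store buffers did not move together. Casq2 (calsequestrin, ENSMUSG00000027861, chr3:102086415-102146514, plus strand) was 1219, 1053, 1306 and 927 CPM in WT 1 to 4 and 1153, 1151, 1063 and 989 CPM in TAZG197V 1 to 4. The groups overlapped fully, and the fold change was -0.04 on the log2 scale (SE 0.0921, adjusted p = 0.725, edgeR). Hrc (the histidine-rich calcium binding protein, ENSMUSG00000038239, chr7:45335290-45338974, plus strand) was 1353, 1123, 1292 and 1279 CPM in WT 1 to 4. It was 474, 407, 517 and 601 CPM in TAZG197V 1 to 4. The highest TAZG197V library was far below the lowest WT library, and the 2.57-fold fall was -1.36 on the log2 scale (SE 0.106, adjusted p = 5.71e-05, edgeR). It passed in all 17 alternative settings, from -1.42 to -1.29 on the log2 scale.

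Triadin and junctophilin, which tie the store membrane to its buffers and to the cell surface membrane, fell by similar amounts. Trdn (ENSMUSG00000019787, chr10:33080554-33476709, plus strand) was 444, 419, 415 and 401 CPM in WT 1 to 4 and 333, 310.2, 327 and 342 CPM in TAZG197V 1 to 4. Its 4 values in each genotype were tight and apart, at a log2 fold change of -0.35 (SE 0.0632, adjusted p = 0.00338, edgeR). Jph2 (ENSMUSG00000017817, chr2:163336242-163397993, minus strand) was 645, 573, 676 and 513 CPM in WT 1 to 4. It was 499, 485, 442 and 438 CPM in TAZG197V 1 to 4. WT 4 was the lowest WT library and came near TAZG197V 1, and the log2 fold change was -0.36 (SE 0.0853, adjusted p = 0.0109, edgeR).

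The pump and its main inhibitor both fell. Atp2a2 (SERCA2, ENSMUSG00000029467, chr5:122453513-122502225, minus strand) was 14608, 13739, 14432 and 14878 CPM in WT 1 to 4 and 11325, 10440.0, 11166 and 10817 CPM in TAZG197V 1 to 4. Every TAZG197V library was well below every WT library, at a log2 fold change of -0.41 (SE 0.0808, adjusted p = 0.00508, edgeR). Pln (ENSMUSG00000038583, chr10:53337667-53345987, plus strand) was 1818, 1634, 1609.5 and 1519 CPM in WT 1 to 4 and 1063, 973, 1052 and 1047 CPM in TAZG197V 1 to 4. The groups were far apart, at -0.66 on the log2 scale (SE 0.0794, adjusted p = 0.000462, edgeR). Opposite-strand exons of Cep85l and Gm47644 cover 64.7% of the exon bases of Pln, and the strand setting of the counting is not given in the sources used here, so part of these reads could belong to either strand. Gm47644 was also called lower, at -0.48 (adjusted p = 0.0235, edgeR), and Cep85l was not called, at -0.17 (adjusted p = 0.109, edgeR). In WT, the mean level was 32.4 CPM for Gm47644 and 28.1 CPM for Cep85l, against 1645 CPM for Pln.

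On the surface membrane the exchanger rose while the entry channel was not called. Slc8a1 (the sodium-calcium exchanger NCX1, ENSMUSG00000054640, chr17:81373105-81738377, minus strand) was 553, 499, 557 and 512 CPM in WT 1 to 4. It was 989.6, 909.7, 955 and 792 CPM in TAZG197V 1 to 4. TAZG197V 4 was the lowest of its group and still far above the WT libraries, and the 1.7-fold rise was 0.77 on the log2 scale (SE 0.065, adjusted p = 8.77e-05, edgeR). Cacna1c (the pore of the L-type calcium channel, ENSMUSG00000051331, chr6:118587240-119196418, minus strand) was 388, 339, 324 and 403 CPM in WT 1 to 4 and 378, 295, 331 and 341 CPM in TAZG197V 1 to 4. These groups overlapped, at -0.12 on the log2 scale (SE 0.0964, adjusted p = 0.337, edgeR).

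Camk2d encodes the main cardiac form of the calcium and calmodulin dependent kinase CaMKII, which phosphorylates Ryr2 and phospholamban. Camk2d (ENSMUSG00000053819, chr3:126596302-126846326, plus strand) was 211, 207, 196 and 171 CPM in WT 1 to 4 and 231, 222, 219 and 194 CPM in TAZG197V 1 to 4. Both number 4 libraries were the lowest of their genotype, and the groups overlapped. The log2 fold change of 0.16 (SE 0.0576, adjusted p = 0.0559, edgeR) did not pass.

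**Figure D1:**
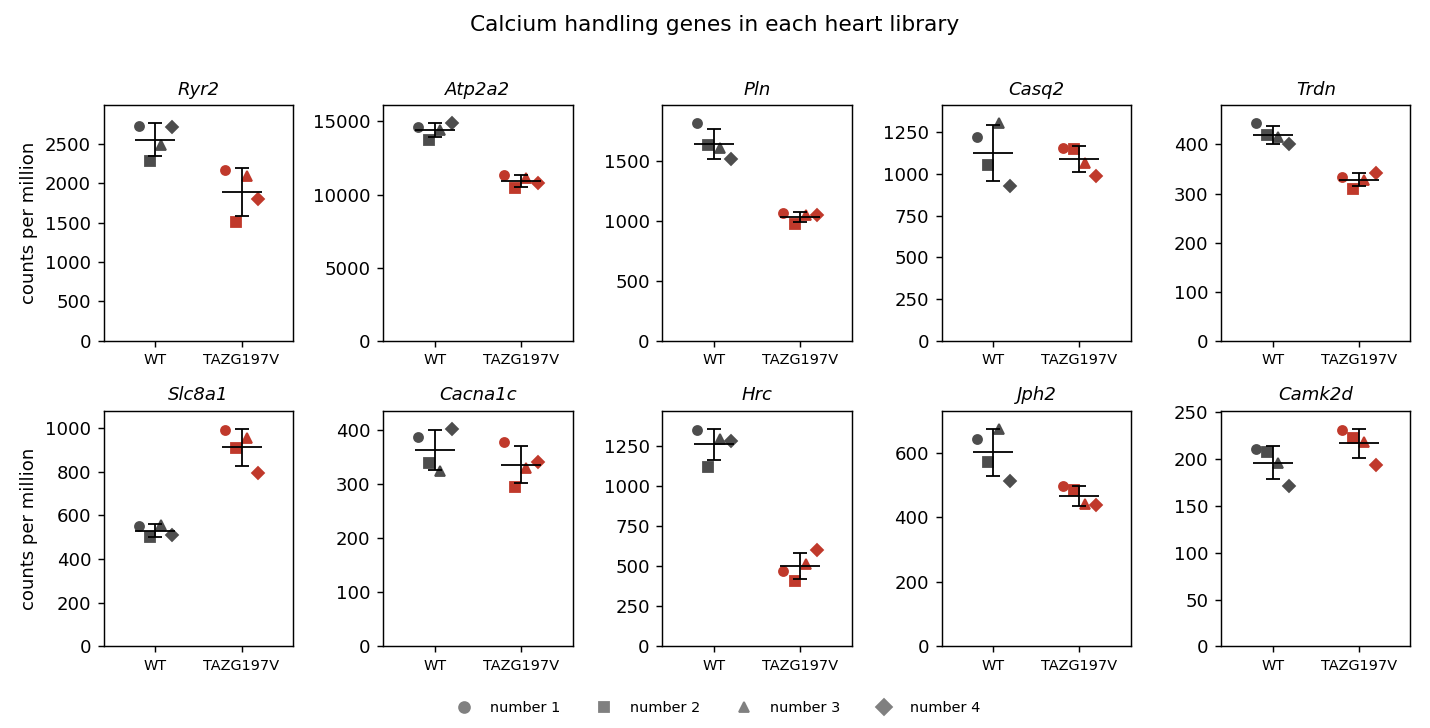
Level of each of the 10 genes in CPM on a linear axis from 0, with a point for each library (symbol by library number), a wide bar for the mean of 4 libraries and whiskers for 1 SD. Hrc shows the widest gap downward and Slc8a1 the only gap upward, while Casq2, Cacna1c and Camk2d overlap between WT and TAZG197V.

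Set on a scale per length of exon, the order of levels within the calcium cycle shifted. In WT the order of mean CPM per kilobase of exon was Atp2a2 at 2370.4, Pln at 596, Hrc at 492, Casq2 at 412, Jph2 at 141, Ryr2 at 88.7, Trdn at 44.9, Slc8a1 at 28.2, Cacna1c at 17.2 and Camk2d at 8.72. Only the neighbours Hrc and Casq2 overlapped in their library values. In TAZG197V, Casq2 at 398 CPM per kilobase stood beside Pln at 375 CPM per kilobase with overlapping libraries, and Hrc came after both at 195 CPM per kilobase. Slc8a1 at 48.5 CPM per kilobase overlapped Ryr2 at 65.7 CPM per kilobase and had passed Trdn at 35.1 CPM per kilobase. Exon lengths were those of all annotated transcripts together, so a gene with many unused exons appears lower than its true level.

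The mean log2 CPM of the 6 ventricular cardiomyocyte markers was lower by 0.23 in TAZG197V, with all 4 libraries below the WT libraries (two-sided exact permutation test, p = 0.0286, the smallest value 4 against 4 libraries allow). Tnnt2 and Tnni3 were the 2 of these 6 markers that were called, both lower. The median log2 fold change was -0.25 over them, -0.34 over 6 fibroblast markers, of which 3 were called lower, and -0.33 over 5 endothelial markers, of which 2 were called lower. All 4 smooth muscle markers were called, 3 lower and Acta2 higher at 1.16, with a median of -0.85, and the median over 4 macrophage markers was -0.04. In bulk tissue fewer cells of a type and less RNA per cell cannot be told apart. When each member was expressed relative to these markers, a comparison added after the data were seen, Hrc stayed lower by 1.11 on the log2 scale, Pln by 0.44, Atp2a2 by 0.17 and Jph2 by 0.13, each with groups that did not overlap. Slc8a1 was higher by 1.01 and Camk2d by 0.38, also without overlap. The marker mean itself was lower by 0.23, which moves every gene upward on this scale. In CPM, Camk2d overlapped between the genotypes and was not called. How many of all genes tested separate on this scale was not determined. Ryr2 was lower by 0.21 and Trdn by 0.12 with overlapping groups, and Casq2 at 0.19 and Cacna1c at 0.12 turned to higher values with overlapping groups.

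**Figure D2:**
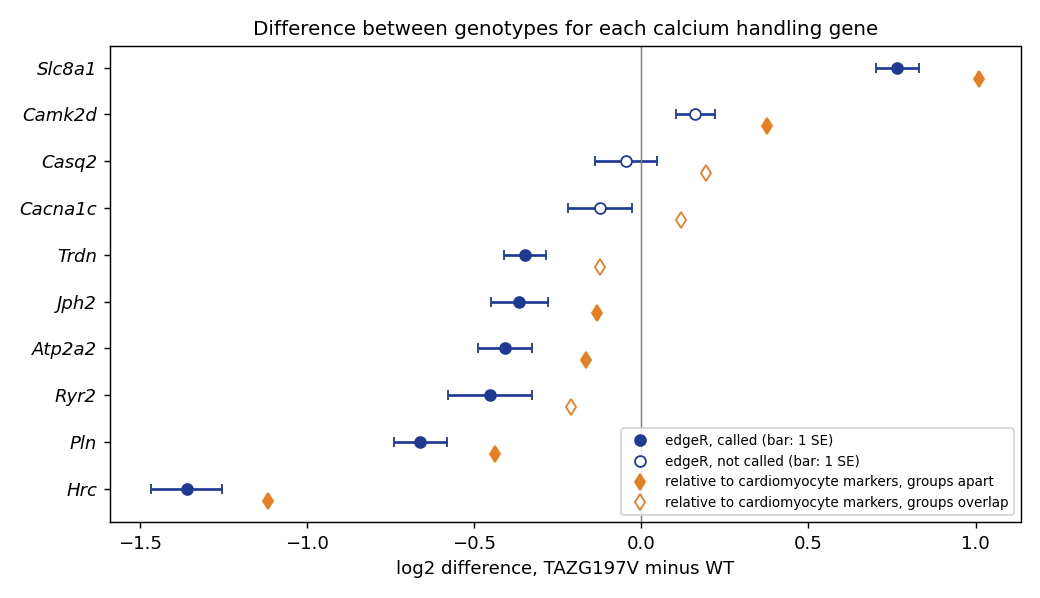
Difference between genotypes (TAZG197V minus WT, log2 units) for each gene, as the edgeR fold change with 1 SE (circles, filled where called) and as the difference relative to 6 ventricular cardiomyocyte markers (diamonds, filled where the libraries of the genotypes do not overlap). Hrc, Pln, Atp2a2, Jph2 and Slc8a1 keep their side of 0 with filled symbols on both scales, and Ryr2 and Trdn do so for the edgeR values alone.

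Ratios of counts between members of the same library do not depend on how libraries were scaled, and 6 were compared. The ratio of Slc8a1 to Atp2a2, the exchanger against the pump, was 0.0378, 0.0363, 0.0386 and 0.0344 in WT 1 to 4 and 0.0874, 0.0871, 0.0856 and 0.0732 in TAZG197V 1 to 4. It was 2.26-fold higher in TAZG197V, and no library of either genotype came near the other genotype (exact permutation test, p = 0.0286). The ratio of Pln to Atp2a2 fell from 0.114 ± 0.00967 to 0.0945 ± 0.00157 (SD, n = 4 each, exact permutation test, p = 0.0286), a log2 difference of -0.27, with WT 4 at 0.102 nearest to TAZG197V 4 at 0.0968. The ratio of Ryr2 to Cacna1c fell from 7.04 ± 0.428 to 5.61 ± 0.539 (SD, n = 4 each, exact permutation test, p = 0.0286), a log2 difference of -0.33. After Benjamini-Hochberg adjustment over the 6 ratios these 3 had an adjusted p of 0.0571, so none of the 6 ratios passed 0.05.

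The remaining 3 ratios overlapped between genotypes. Casq2 to Ryr2 went from 0.444 ± 0.0767 in WT to 0.588 ± 0.119 in TAZG197V (SD, n = 4 each, exact permutation test, p = 0.0571, adjusted p = 0.0857). Trdn to Ryr2 was 0.165 ± 0.0147 and 0.176 ± 0.0257 (exact permutation test, p = 0.514, adjusted p = 0.617). Jph2 to Ryr2 was 0.237 ± 0.0353 and 0.252 ± 0.0488 (exact permutation test, p = 0.686, adjusted p = 0.686). The ratios to Ryr2 were highest in TAZG197V 2, the library in which Ryr2 was lowest.

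**Figure D3:**
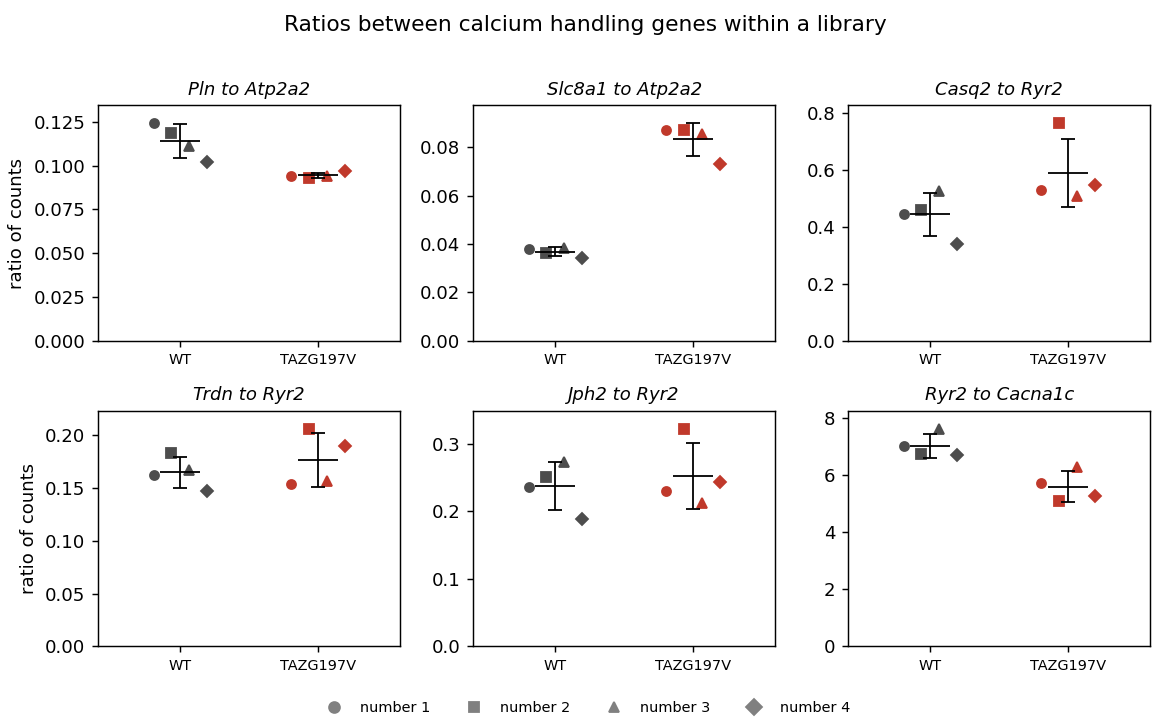
Ratio of raw counts of 2 genes within each library on linear axes from 0, with a point for each library, a wide bar for the mean of 4 libraries and whiskers for 1 SD. The ratio of Slc8a1 to Atp2a2 separates the genotypes most widely, and the 3 ratios of Casq2, Trdn and Jph2 to Ryr2 overlap.

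The other genes of the pathway were described through 7 lists with 89 genes, of which 86 were tested. The test called 42 of the 86 (48.8%), 8 higher and 34 lower, at a median log2 fold change of -0.22. Without both number 4 libraries 10 were called higher and 34 lower. This share lies between that of all genes tested and that of the abundant genes given above. Opposite-strand exons cover 14.7% of the exon bases of Asph, 18.7% of Atp1b1, 16.5% of Ppp1ca, 41.3% of Ppp2ca and 22.4% of Hdac4. What share of the counts of these genes this affects was not tested.

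Among the small regulators of the pump, the transcript of DWORF showed the widest change. DWORF competes with phospholamban and sarcolipin for SERCA and raises its activity. Strit1 (chr3:63481112-63483879, minus strand) was 17.4, 12.4, 13.2 and 6.34 CPM in WT 1 to 4, from 513, 450, 339 and 142 reads. It was 0.581, 0.405, 0.452 and 0.367 CPM in TAZG197V 1 to 4, from 16, 15, 14 and 10 reads. The lowest WT library, WT 4, was still far above all TAZG197V libraries, and the log2 fold change was -4.74 (SE 0.259, adjusted p = 9.74e-06, edgeR), a 26.8-fold fall. It was called in all 17 alternative settings, from -4.97 to -4.52 on the log2 scale, and relative to the cardiomyocyte markers it was lower by 4.27 on the log2 scale. None of its exon bases lie in another annotated gene, and 0% of its 50-base exon windows occur in another annotated gene.

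The genes around Strit1 on chromosome 3 were looked at after its value was seen. Of 7 tested genes within 1 Mb 3 were called, a share of 42.9% against 33.5% of all genes tested. Vmn2r3, annotated as a vomeronasal receptor, was 0.0338, 0.247, 1.01 and 0.0893 CPM in WT 1 to 4 and 193, 203, 188 and 131 CPM in TAZG197V 1 to 4. Mme, the membrane protease neprilysin, fell by 1.29 on the log2 scale (adjusted p = 0.000399, edgeR), and Slc33a1, an acetyl-CoA transporter, rose by 0.66 (adjusted p = 0.000992, edgeR). Plch1, a phospholipase C gene, had 0, 2, 1 and 2 reads in WT and 43, 67, 100 and 61 reads in TAZG197V, which kept its mean count below the minimum for a call. The edited gene Taz lies on chromosome X and not near these genes. Genotype and any strain difference on chromosome 3 between the groups cannot be told apart here.

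Of the other pump regulators, Hax1 rose from 5.48, 6.46, 6.25 and 5.76 CPM in WT 1 to 4 to 16.3, 16.5, 14.4 and 13.5 CPM in TAZG197V 1 to 4. HAX-1 is a phospholamban partner with further roles in mitochondria. Its log2 fold change was 1.35 (SE 0.0959, adjusted p = 3.57e-05, edgeR), and 28.4% of its 50-base exon windows also occur in another annotated gene. What share of its counts this affects was not tested. Atp2a3 (SERCA3) was -0.87 and just under the threshold (adjusted p = 0.0486, edgeR), but only 5 of 17 alternative fits called it, and the adjusted p was 0.0668 with DESeq2, 0.124 without surrogate variables and 0.145 with the sequencing lane as covariate. WT 4 alone stood at 63 CPM against 16.9 to 19.0 CPM in the other WT libraries. Without WT 4 the value was -0.23 (adjusted p = 0.117, edgeR), and without TAZG197V 4 it was -0.30 (adjusted p = 0.0496, edgeR). S100a1 (0.11), Atp2a1 (-0.65) and Mrln (-1.52) were not called, the last 2 because of a mean count under 50 or an adjusted p above 0.05.

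Sln did not pass the filter on low counts. Its counts were 290, 3153, 1 and 5 in WT 1 to 4 and 3, 3, 1 and 6 in TAZG197V 1 to 4. Of the 5 atrial markers, Myl7, Myl4 and Mybphl were likewise highest in WT 2, at 385, 411 and 36.4 CPM, and next in WT 1, at 27, 35.2 and 3.11 CPM, while every other library was at most 1.28 CPM for Myl7 and 3.81 CPM for Myl4. The other two were less alike. Nppa was 175 CPM in WT 2 but also 127 CPM in TAZG197V 2 and 67.6 CPM in WT 3, against 43.0 CPM in WT 1, and Bmp10 was highest in WT 1 at 3.11 CPM but 0.522 CPM in WT 2 against 0.981, 1.27 and 1.74 CPM in TAZG197V 1 to 3. The part of atrial tissue in the Sln values was not tested. In WT 3 and WT 4 the Sln counts of 1 and 5 lay in the range of the TAZG197V libraries. The 3 peptides shown above thus had 3 patterns, with Strit1 low in all TAZG197V libraries, Pln moderately lower in all of them, and Sln high in WT 1 and WT 2 only.

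**Figure D4:**
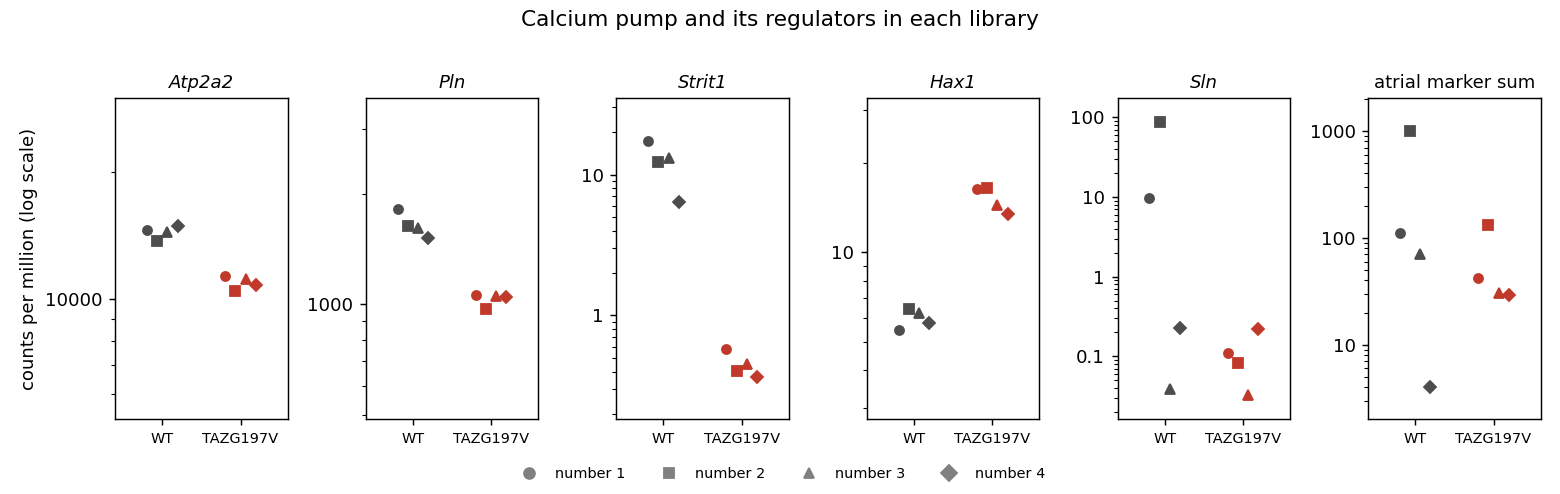
Levels of the pump gene Atp2a2 and of Pln, Strit1, Hax1 and Sln in CPM, and the summed level of 5 atrial markers, on logarithmic axes with a point for each library. Strit1 lies below 1 CPM in all TAZG197V libraries and above 6 CPM in all WT libraries, and Sln is high only in WT 1 and WT 2.

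In the release unit and junction list, 5 of 15 tested genes were called, 2 higher and 3 lower. This share of 33.3% was close to the 33.5% of all genes tested. Fkbp1a, which encodes the FKBP12 subunit that binds ryanodine receptors, rose from 106 ± 5.89 to 151 ± 5.39 CPM (SD, n = 4 each, log2 fold change 0.51, adjusted p = 0.000363, edgeR). Calm2, a calmodulin gene, rose by 0.45 on the log2 scale (adjusted p = 0.00116, edgeR). Speg, a kinase of the junction that phosphorylates Ryr2 and SERCA2, fell by 0.49 (adjusted p = 0.000925, edgeR). Asph, whose locus also encodes junctin, the partner of triadin, fell by 0.45 (adjusted p = 0.00358, edgeR). Jph1 was the other gene called lower, and Tmem38a, Tmem38b, Srl, Sri and Bin1 were among the 10 not called.

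In the calcium entry list, 6 of 12 genes were called, 1 higher and 5 lower. This is 50%, against 33.5% of all and 51.6% of the abundant genes tested. Cacna2d1, the auxiliary subunit that brings L-type channels to the surface, was 323, 272, 265 and 331 CPM in WT 1 to 4 and 170, 141, 142 and 186 CPM in TAZG197V 1 to 4. It fell by 0.91 on the log2 scale without overlap (SE 0.0861, adjusted p = 0.000141, edgeR), whereas the pore gene Cacna1c was not called. Cacna1g, a T-type channel gene, fell by 1.26 (adjusted p = 0.000885, edgeR) and Cacna1d, the L-type pore of atrium and sinus node, fell by 1.149 (adjusted p = 0.00421, edgeR). Both were highest in WT 2, the library with the highest atrial marker sum, and the part of atrial tissue in them was not tested. When 1 library was left out both stayed called, with Cacna1g between -1.90 without TAZG197V 4 and -0.95 without WT 1, and Cacna1d between -1.75 without TAZG197V 4 and -0.90 without WT 2. Without WT 2, Cacna1g was -1.19. Cacna1d was not called without surrogate variables (adjusted p = 0.0953, edgeR) or with the sequencing lane as covariate (0.0982). Rem1, a small GTPase that restrains L-type channels, fell by 0.68 (adjusted p = 0.00239, edgeR).

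In the list of calcium extrusion and sodium balance, 5 of 10 tested genes were called, 1 higher and 4 lower. This is 50%, against 33.5% of all and 51.6% of the abundant genes tested. Atp1b1, a beta subunit of the sodium pump, rose by 0.40 (adjusted p = 0.00379, edgeR). Atp2b2, a surface calcium pump abundant in brain, was called lower at -1.24 (adjusted p = 0.0106, edgeR), but it was 13.1 CPM in TAZG197V 4 and 7.5 CPM in WT 4 against at most 1.59 CPM in the other 6, with the brain markers, and its sign turned without surrogate variables, at 0.33. It was not called with the sequencing lane as covariate either (adjusted p = 0.721, edgeR), nor without TAZG197V 1 (0.0693) or TAZG197V 2 (0.0706), and without TAZG197V 4 its log2 fold change was -2.33.

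In the list of kinases, anchors and phosphatases, 8 of 14 genes were called, 2 higher and 6 lower. This is 57.1%, against 33.5% of all and 51.6% of the abundant genes tested. The CaMKII genes other than Camk2d were all called lower. Camk2g was 66.3, 68.1, 56.5 and 66.5 CPM in WT 1 to 4 and 39.6, 43, 40.5 and 43.9 CPM in TAZG197V 1 to 4, a fall of 0.61 on the log2 scale (adjusted p = 0.000303, edgeR). Camk2a fell by 0.70 (adjusted p = 0.000752, edgeR) and Camk2b by 1.25 (adjusted p = 0.00334, edgeR). These last 2 genes are also brain genes, and within TAZG197V they were highest in number 4, at 89.5 and 38.9 CPM against at most 37.9 and 6.18 CPM in the other TAZG197V libraries. Without TAZG197V 4 alone, Camk2b fell by 1.90 (adjusted p = 3.93e-05, edgeR). Without both number 4 libraries these genes fell by 0.93 and fell by 1.87 on the log2 scale, and neither was called without surrogate variables (adjusted p = 0.206 and 0.43, edgeR) or with the sequencing lane as covariate (0.149 and 0.273). Prkaca, the catalytic subunit of protein kinase A, fell by 0.48 (adjusted p = 0.00067, edgeR). The 2 genes called higher, Ppp1ca and Ppp2ca, encode catalytic subunits of protein phosphatases.

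In the list of other stores and store-operated entry, 8 of 13 tested genes were called, 1 higher and 7 lower. This is 61.5%, against 33.5% of all and 51.6% of the abundant genes tested. The 3 genes of the inositol trisphosphate receptor, the second release channel of the store, all fell, Itpr1 by 0.39 (adjusted p = 0.00196, edgeR), Itpr2 by 0.51 (adjusted p = 0.00761, edgeR) and Itpr3 by 0.70 (adjusted p = 0.000702, edgeR). Stim1, the store calcium sensor, fell by 0.65 (adjusted p = 0.00027, edgeR), and its paralogue Stim2 was not called at -0.02. Orai1, Orai3 and Calr were called lower as well, and Tmco1, a calcium release channel of the endoplasmic reticulum, was called higher. Casq1, the skeletal calsequestrin, was 22.7 and 64.4 CPM in WT 1 and WT 2 and at most 8.4 CPM elsewhere, and it was not called.

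In the list of calcineurin and CaMKII effectors, 7 of 16 genes were called, all lower. This is 43.8%, against 33.5% of all and 51.6% of the abundant genes tested. Hdac4, a CaMKII-regulated repressor, fell by 1.05 on the log2 scale (adjusted p = 0.000639, edgeR), from 37.4, 39.1, 22.7 and 31.1 CPM in WT 1 to 4 to 14, 15.9, 14.7 and 15.3 CPM in TAZG197V 1 to 4. Mef2c, a muscle transcription factor that Hdac4 binds, fell by 0.49 (adjusted p = 0.000394, edgeR). Nfatc1 fell by 0.43 (adjusted p = 0.00649, edgeR) and Nfatc4 fell by 0.56 (adjusted p = 0.0383, edgeR), the latter called in 10 of 17 alternative settings. The calcineurin subunits Ppp3ca, Ppp3cb and Ppp3r1 and the calcineurin reporter gene Rcan1 were not called, Rcan1 at 0.18 (adjusted p = 0.402, edgeR).

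**Figure D5:**
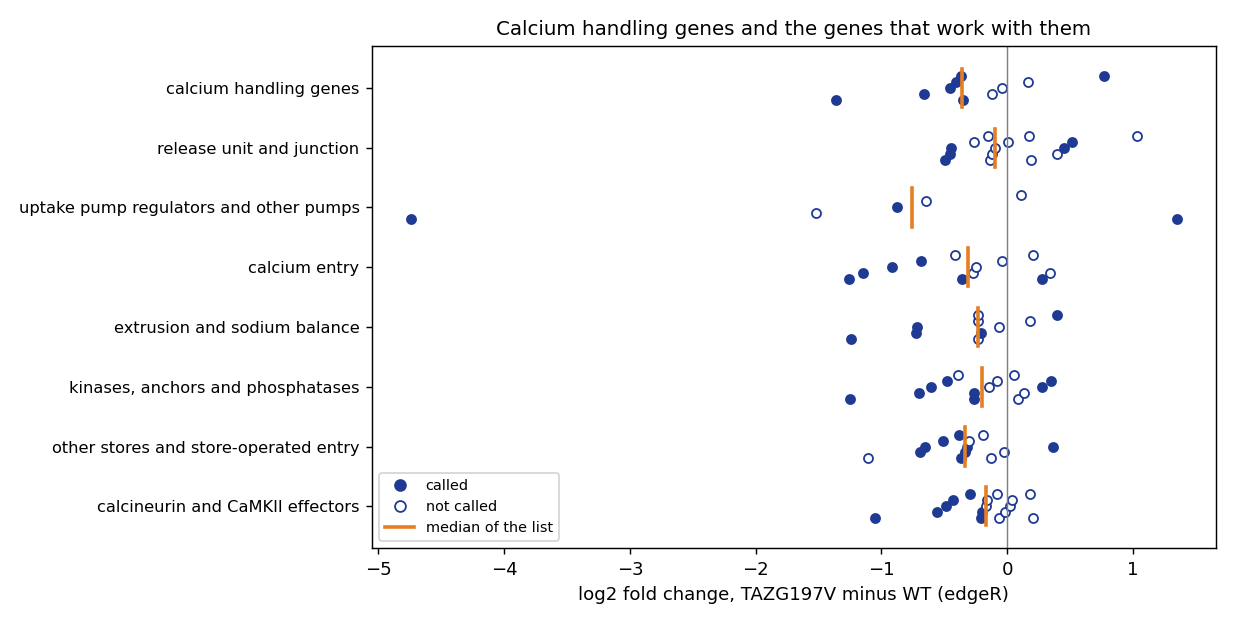
The log2 fold change (TAZG197V minus WT, edgeR) of each tested gene in the 10 calcium handling genes and in the 7 lists of genes that work with them, filled where called, with a bar at the median of each list. Strit1 at -4.74 lies far from all others, and the medians of all lists are below 0.

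Upstream sequences of Strit1 and of the members with the largest fall and rise, Hrc and Slc8a1, are shown, since the genotypes lay furthest apart for these genes. RefSeq promoters on GRCm38.p6 were matched for 9 of 12 genes looked up, the members with Strit1 and Sln. The 250 bases before the annotated start are given 5′ to 3′ in the direction of the gene. They were searched on both strands for the E-box CANNTG, for GATAA and for the MEF2 motif, and matches are in capitals. Among 32851 promoters of this length 66.2% hold the E-box, 22.6% GATAA and 0.508% the MEF2 motif. The stretch for Hrc is chr7:45335019-45335268 (plus strand), for Slc8a1 chr17:81738388-81738637 (minus strand) and for Strit1 chr3:63483907-63484156 (minus strand).
Hrc: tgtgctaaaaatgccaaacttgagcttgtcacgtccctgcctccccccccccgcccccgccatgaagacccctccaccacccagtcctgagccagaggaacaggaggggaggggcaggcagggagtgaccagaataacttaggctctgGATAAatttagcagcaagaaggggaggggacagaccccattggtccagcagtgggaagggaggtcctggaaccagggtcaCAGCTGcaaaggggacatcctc
Slc8a1: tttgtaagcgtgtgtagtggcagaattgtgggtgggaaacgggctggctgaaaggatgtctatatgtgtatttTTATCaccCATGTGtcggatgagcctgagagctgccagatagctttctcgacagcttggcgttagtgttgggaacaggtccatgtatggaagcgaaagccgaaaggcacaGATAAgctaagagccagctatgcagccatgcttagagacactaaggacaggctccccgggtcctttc
Strit1: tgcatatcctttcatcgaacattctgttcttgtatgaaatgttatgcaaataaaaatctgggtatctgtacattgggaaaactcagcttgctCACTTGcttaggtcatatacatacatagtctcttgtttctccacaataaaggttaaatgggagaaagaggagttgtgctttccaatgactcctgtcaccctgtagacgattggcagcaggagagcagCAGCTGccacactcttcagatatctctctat
The stretch before Hrc holds 1 E-box and 1 GATAA, that before Slc8a1 holds 1 E-box and 2 GATAA, and that before Strit1 holds 2 E-boxes. These matches are letters in a window and not binding sites, and no other data of this series bear on them.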

How the data were processed

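Per the labels and the study, single-end reads were demultiplexed by the authors with bcl2fastq 2.20.0, aligned to mm10 with STAR 2.7.3a and counted over exons with featureCounts (Subread 2.0.0). The deposited values are raw counts per Ensembl gene. Which annotation release and strand setting were used, and how reads with several alignments were counted, is not given in the sources used here. Gene names and coordinates are those of GENCODE M21 (GRCm38, the assembly of mm10), and Strit1 was matched through its RefSeq synonym. The 92 spike-in rows summed to 0 and were left out.

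Counts were tested in R 4.3.3 with edgeR 4.0.16 (TMM scaling, filterByExpr, quasi-likelihood F-test, two-sided) with 2 surrogate variables from svaseq in sva 3.50.0 (genotype protected, random seed 1) and p-values were adjusted by Benjamini-Hochberg across the 15084 tested genes. A call needed an adjusted p under 0.05, a fold change beyond 1.15 and a mean scaled count of at least 50. Standard errors were derived from the log2 fold change and its F statistic. CPM values were TMM-scaled. The 6 ratios of counts were compared by exact permutation tests, adjusted over the 6.

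Total counts of 23055689 to 36301031 make counting error small for the members, so the spread between libraries sets the precision. P-values measure only that spread, and those of edgeR only the part left after the surrogate variables are fitted. These variables were estimated from the same libraries. Reads carried no molecular identifiers. Libraries of a genotype differed by at least 10.2 chi-square units per gene, so no library was counted as a repeat. Alternatives were DESeq2 1.42.0 (with the same variables), DESeq2 size factors, no low-count filter, 0 or 1 surrogate variable, sequencing lane, replicate number, removal of mitochondrially encoded genes, a fold change of 1.5, omission of each library, and omission of both number 4 libraries. Levels relative to cardiomyocyte markers and the genes within 1 Mb were added after the data were seen. The procedure was tested on simulated counts.

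The members, the gene lists and the tests were chosen with earlier results of these data known. The text names all 10 members, Taz, up to 4 called genes per list with the largest change, marker genes where their level moved with a result, and, named after their values were seen, other genes of a list, the genes around Strit1 and the genes that overlap Pln. Some genes of the list of calcium extrusion and sodium balance that this rule would name are not reported here. Promoters and coding sequences came from RefSeq and GENCODE tables.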

Additional observations from a re-analysis of the deposited data

Results flagged for a closer look

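A library was noted when its distance from the nearest library of its genotype took more of the genotype's range than the 95% critical value of Dixon's test allows for 4 values. Of 108 sets of 4 values examined, 18 met this, against 5.4 by chance.

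For the calcium handling genes themselves, 2 ratios were noted. The ratio of Slc8a1 to Atp2a2 was low in TAZG197V 4, at 0.0732 against 0.0856 to 0.0874 (0.871 of the range), and that of Casq2 to Ryr2 was high in TAZG197V 2, at 0.765 against 0.509 to 0.548 (0.847).

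Among the genes that work with them, Atp2a3 was high in WT 4 (0.954) and Mef2c was high in WT 4 at 88.9 CPM against 67.4 to 70.6 CPM (0.85). Camk2g was low in WT 3 at 56.5 CPM against 66.3 to 68.1 CPM (0.848). Atp2b2 was high in WT 4 (0.901) and in TAZG197V 4 (0.992). Camk2b (0.955), Camk2a (0.902) and Cacna1d (0.851) were high in TAZG197V 4.

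Marker sums that stood apart were those of atrial genes in WT 2 (0.893) and in TAZG197V 2 (0.871), fibroblast genes in WT 2 (0.892), and adipocyte genes in WT 2 (0.848) and in TAZG197V 4 (0.96). The atrial sum of 131 CPM in TAZG197V 2 was mostly Nppa, at 127 CPM. Myl7 was 0.459 CPM and Myl4 2.83 CPM in that library. Red cell genes were high in WT 4 (0.987), and brain genes in WT 4 (0.968) and in TAZG197V 4 (0.991).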

How the results depend on the processing

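Across the 17 alternative fits between 3675 and 5193 genes were called, against 5060, and 6 or 7 of the 10 members, the missing member being Ryr2. A fold change beyond 1.5 left 1843 genes and 3 members. DESeq2 called 4718 genes and the same 7 members. For the members and named genes 609 comparisons kept their direction and side of the threshold and 35 lost the call. Casq2 ran from -0.11 to 0.020 when 1 library was left out, above 0 without WT 3 only, and Atp2b2 turned to 0.33 without surrogate variables. Relative to the cardiomyocyte markers, whose own mean was lower by 0.23, Casq2 (0.19) and Cacna1c (0.12) turned. For the ratios, Jph2 to Ryr2 ranged from -0.046 to 0.16 and Trdn to Ryr2 from 0.01 to 0.15 on the log2 scale when 1 library was left out. Without both number 4 libraries they were -0.014 and -0.0018. The cause of these shifts was not tested. Libraries with the same number correlated at 0.277, 0.0436, 0.28 and 0.416 in their deviations from the genotype means. Libraries 1, 2 and 4 but not 3 correlated best with their own number. The sample titles do not name pairs, and the main fit did not take the numbers as pairs. These correlations do not settle whether equal numbers share a source. With the replicate number as a block, 4272 genes and 7 members were called, Camk2b (adjusted p = 0.0606), Cacna1d (0.0596), Nfatc4 (0.0563), Atp2a3 (0.165) and Atp2b2 (0.225, edgeR) were not, and the ratio of Slc8a1 to Atp2a2 had an exact sign-flip p of 0.125, the smallest that 4 pairs allow. Low counts limit Sln, Mrln and Strit1 in TAZG197V hearts.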
